A study of Mus musculus with 12 samples.

Results

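A group of 2022 H3K27ac peaks lay at gene ends in a Kmt2d mutant mouse melanoma line and had no counterpart in a Kmt2d wild-type (WT) line. They were 10.8% of the 18751 peaks in the mutant H3K27ac list and 40.0% (38.6% to 41.3%) of the 5056 mutant peaks at a gene end. A peak was taken as a member when it lay within 1 kb of either end of a RefSeq protein-coding or lncRNA gene and no WT H3K27ac peak lay within 1 kb of it. The presence of the peak in the mutant list and its absence from the WT list are the measured values the members were selected on, and are not results. The comparison set was the other 3034 mutant gene-end peaks, which did have a WT peak within 1 kb and are called shared here. Ranges after a percentage are 95% Wilson intervals and cover counting error only.

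The data are ChIP-seq peak lists from 2 cell lines of mouse melanoma grown as cultures in DMEM/F12 with serum. Line 971 is WT for Kmt2d and line 493 carries a Kmt2d mutation, and the labels do not say how that mutation arose or which animals gave the lines. Each line has 1 library for each of H3K27ac, H3K4me3, H3K4me1 and H3K27me3, immunoprecipitated with Abcam antibodies, so no difference between the lines has a replicate check and none was tested. Line and Kmt2d genotype cannot be told apart. Of 8 melanocyte markers, H3K4me3 lay at a gene end for 5 in the mutant line (Mitf, Sox10, Pax3, Pmel and Mlana) and for 3 in the WT line (Mitf, Pax3 and Pmel). The pigment enzyme genes Tyr, Tyrp1 and Dct had it in neither line. Fibroblast markers had it for 4 of 8 in the mutant and 5 of 8 in the WT line, endothelial and immune markers for 1 of 4 and 1 of 5 in each line, and keratinocyte markers for 2 of 5 in the mutant and 0 of 5 in the WT line.

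H3K27ac is an acetyl mark on histone H3 that is placed by the acetyltransferases CBP and p300 at active enhancers and promoters. At an active promoter it sits on the nucleosomes that flank the transcription start, together with H3K4me3, which is laid down there by SET1 and MLL complexes and is favoured by CpG islands. KMT2D (MLL4) works mainly at enhancers, where it places H3K4me1 and helps to recruit p300, while H3K27me3 is the mark of Polycomb repression.

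The sequences of 6 members show the kinds of promoter in the group. They were taken, in each class by H3K4me3, from members whose peak reached at least 80 bases into the 250 bases before a gene start. Gene starts are as given in RefSeq (GRCm38.p6, the assembly of mm10). The 6 are examples, and stronger members of the same kind may not be shown. Only the stretch inside that window of 250 bases is printed, 5′ to 3′ on the strand of the gene. Capitals mark CG dinucleotides. The first 4 had H3K4me3 in both lines. They lay before Phrf1, a PHD and RING finger gene (chr7:141228574-141228720, plus strand), Farsb, a subunit of phenylalanyl-tRNA synthetase (chr1:78488958-78489091, minus strand), Gnb2, a G protein beta subunit (chr5:137533400-137533540, minus strand), and Btaf1, an ATPase that removes the TATA-binding protein from DNA (chr19:36925829-36925938, plus strand).
Phrf1: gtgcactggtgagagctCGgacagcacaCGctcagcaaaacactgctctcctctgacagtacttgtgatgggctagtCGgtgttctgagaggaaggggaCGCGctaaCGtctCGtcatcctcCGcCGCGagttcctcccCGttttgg
Farsb: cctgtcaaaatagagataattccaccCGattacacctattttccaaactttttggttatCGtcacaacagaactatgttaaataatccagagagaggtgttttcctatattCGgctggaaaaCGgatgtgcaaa
Gnb2: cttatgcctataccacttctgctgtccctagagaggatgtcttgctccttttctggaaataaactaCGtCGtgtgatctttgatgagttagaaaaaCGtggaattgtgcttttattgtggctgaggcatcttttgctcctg
Btaf1: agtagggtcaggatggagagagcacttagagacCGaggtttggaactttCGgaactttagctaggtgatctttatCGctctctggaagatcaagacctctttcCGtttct
The Phrf1 stretch is the strongest member peak and holds 11 CG in 147 bases, whereas the other 3 hold 4 in 134, 3 in 141 and 4 in 110 bases. The next 2 had no H3K4me3 in either line. They lay before Krtap3-3, a hair keratin-associated protein gene (chr11:99550893-99550981, minus strand), and Tnni3k, a cardiac kinase gene (chr3:155055562-155055650, minus strand).
Krtap3-3: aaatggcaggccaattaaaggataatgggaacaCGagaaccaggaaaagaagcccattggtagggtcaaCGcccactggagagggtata
Tnni3k: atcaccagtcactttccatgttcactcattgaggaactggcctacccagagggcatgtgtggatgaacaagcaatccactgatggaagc
They hold 2 and 0 CG in 89 bases each.

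The members were narrow peaks of few fragments. The fold and p-value deposited by the authors for each peak could be turned back into the whole number of fragments at its summit, for all peaks of both lists. Members had a median of 7 fragments (range 4 to 19) over an expected background of 0.472, and shared peaks a median of 8 (range 4 to 24) over 0.561. Median fold enrichment over input was 5.20 and 5.47, and median width 111 bp and 123 bp. The share of gene-end peaks that were members fell with height, from 54.7% (50.8% to 58.5%) of those with 4 or 5 fragments to 26.6% (20.8% to 33.3%) of those with 13 to 24. These values chose the members in part and are given as a description. Since no peak of either list had under 4 fragments, absence from the WT list means that no peak was called there, and weaker acetylation, acetylation in fewer cells and none at all cannot be told apart.

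**Figure D1:**
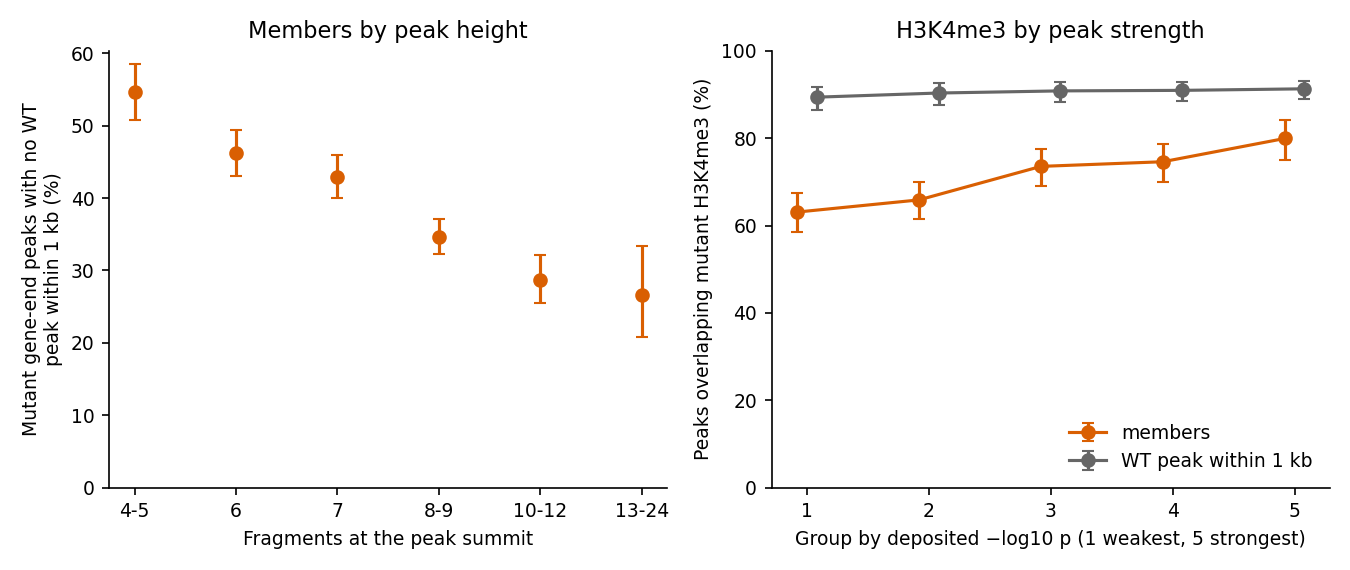
Left, the share (%) of mutant gene-end H3K27ac peaks that are members against the fragments at the summit, falling from 54.7% to 26.6%. Right, the share (%) of members and of shared peaks that overlap mutant H3K4me3 in 5 groups by deposited −log10 p, where members rise from 63.1% to 79.9% and shared peaks stay between 89.4% and 91.3%. Bars are 95% Wilson intervals.

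The nearest WT H3K27ac peak lay a median of 15.7 kb away (quartiles 4.77 and 40.2 kb). It was within 2.5 kb for 344 members (17.0%), within 10 kb for 809 (40.0%) and within 50 kb for 1616 (79.9%). At the limit of 1 kb, Gm33570, Plin3 and Rnf187 were just inside the group, with WT peaks at 1.001, 1.002 and 1.006 kb, and Serpinh1, Unc50 and Gatad2a just outside, with WT peaks at 999, 999 and 997 bp. For the distance to the gene end, Tpd52 (1000 bp) and Cenpa (999 bp) were just inside and Lgals3 (1001 bp), Ppil3 (1002 bp) and Zzz3 (1003 bp) just outside.

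The 12 strongest members lay at 10 protein-coding genes of varied function and at 2 lncRNA genes. The peak at Phrf1 (chr7:141228574-141228720) had 17 fragments in the mutant line, 11.7-fold enrichment and its nearest WT peak 34.8 kb away. Srp9, a subunit of the signal recognition particle, had 13 fragments and no WT peak within 194 kb. Neither gene lacked the other promoter mark in the WT line, where H3K4me3 peaks of 3.47 kb and 1.97 kb covered the sites, against 2.80 kb and 1.93 kb in the mutant line. The shared start region of Fau, which encodes a small-subunit ribosomal protein, and Mrpl49 of the mitochondrial ribosome had 16 fragments. Dctn1, the large dynactin subunit, had 13 fragments, Atxn1l, a partner of the repressor Capicua, 14, and Shoc2, a scaffold of RAS to RAF signalling, 14. H3c13, a replication-dependent histone H3 gene, had 17. Ttc41 (15 fragments), Fam204a (14) and Fam122a (14) completed the protein-coding genes among the 12 strongest. All 10 of these sites had H3K4me3 in both lines. The other 2 peaks lay at the lncRNA genes F730043M19Rik and Gm6634, with 16 fragments each and no overlap with H3K4me3 in either line.

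H3K4me3 was present at most members in both lines. It overlapped 70.5% (68.5% to 72.5%) of members in the mutant line and 70.8% (68.8% to 72.8%) in the WT line, although the WT line had no H3K27ac peak at these sites. In the more significant 50% of each list the shares were 67.6% (65.2% to 69.8%) and 73.9% (71.7% to 76.0%), higher in the WT line with intervals that did not overlap. The mutant H3K4me3 list held 17987 peaks and the WT list 23154, so 50% of each is not the same number of peaks. Shares and widths of H3K4me3 are therefore not on a common scale between the lines. Site by site, 1385 members (68.5%) had H3K4me3 in both lines, 41 (2.03%) in the mutant line alone, 47 (2.32%) in the WT line alone and 549 (27.2%) in neither. Within the members, H3K4me3 in the mutant line alone was thus no more frequent than H3K4me3 in the WT line alone. The intervals of these shares (1.498% to 2.74% and 1.75% to 3.08%) overlapped, but the H3K4me3 lists differ in length. Shared peaks had H3K4me3 in both lines more often, at 90.1% (89.0% to 91.1%), and in neither line less often, at 7.65%. The 4587 gene-end peaks of the WT list without a mutant counterpart stood between them, with 76.8% in both and 19.7% in neither. H3K4me3 in the mutant line alone was more frequent at members than in either comparison set. It marked 0.527% (0.325% to 0.855%) of shared peaks and 0.828% (0.604% to 1.13%) of these WT peaks, and neither interval overlapped that of members. H3K4me3 in the WT line alone marked 1.75% of shared peaks and 2.68% of these WT peaks.

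**Figure D2:**
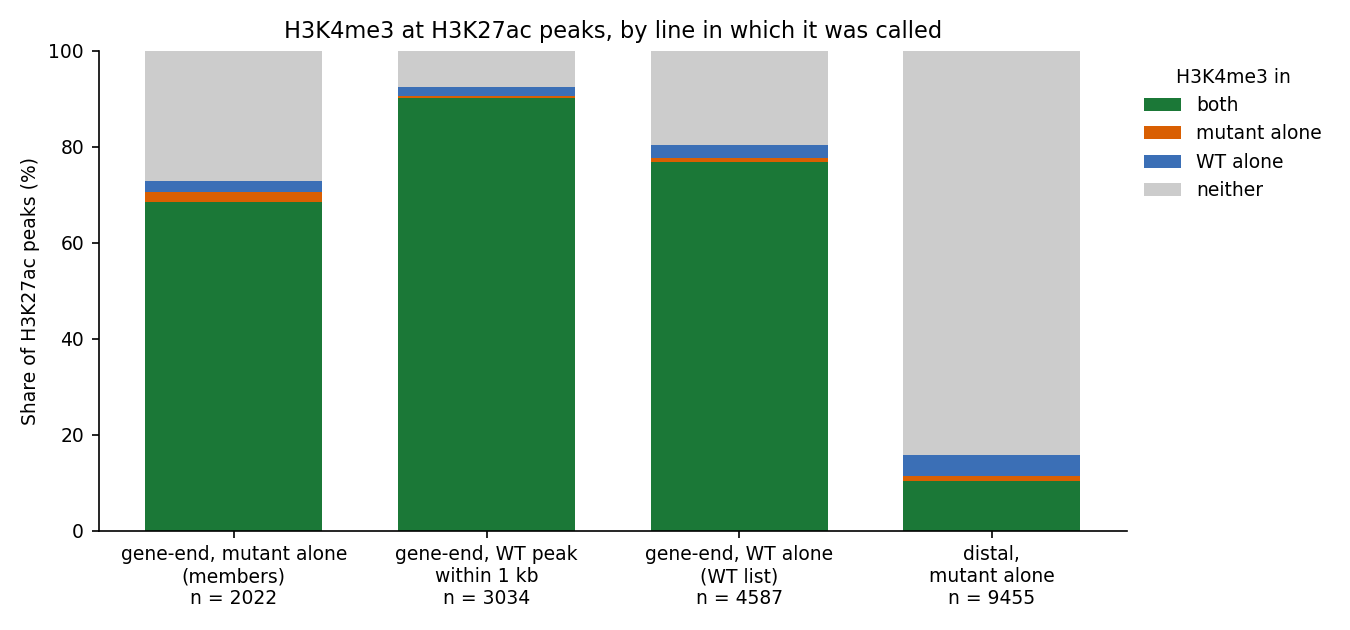
Stacked bars show the share (%) of H3K27ac peaks that overlap H3K4me3 by at least 1 bp in both lines, in the mutant line alone, in the WT line alone or in neither. Members have 68.5% in both lines and 27.2% in neither, shared peaks 90.1% and 7.65%, gene-end peaks of the WT list alone 76.8% and 19.7%, and mutant distal peaks without a WT counterpart 10.4% and 84.3%.

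The lower share was also measured at like peak strength. In 5 groups by deposited −log10 p, weakest first, mutant H3K4me3 overlapped 63.1%, 65.9%, 73.5%, 74.6% and 79.9% of members. The same groups of shared peaks had 89.4%, 90.3%, 90.8%, 90.9% and 91.3%. The intervals of the sets did not overlap in any of the 5 groups, and members were less often in H3K4me3 in each.

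Part of the group did not lie at a gene start. Members within 1 kb of a start numbered 1415 (69.98%), those near a gene stop alone 243 (12.02%), and the strand was not known for 364. Of the shared peaks, 77.9% lay near a start and 3.72% near a stop alone. H3K4me3 in both lines marked 79.2% (77.0% to 81.3%) of members at a start and 16.9% (12.7% to 22.1%) of those at a stop alone, against 92.3% and 41.6% of shared peaks. The gap between the sets therefore remained at starts. Among peaks at starts, 14.8% (13.02% to 16.7%) of members and 20.9% (19.3% to 22.6%) of shared peaks lay between or beside starts on both strands, and 19.8% of members against 9.99% of shared peaks had only a lncRNA gene end nearby.

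Around the start, member summits were placed much like shared ones. For the 1327 members whose summit lay within 1 kb of a start on a known strand, the median summit was 196 bp downstream (quartiles 295 bp upstream and 454 bp downstream), and that of shared peaks was also 196 bp downstream. Within 100 bp of the start lay 5.65% (4.53% to 7.03%) of member summits and 7.95% (6.92% to 9.13%) of shared ones. From 100 to 500 bp downstream these shares were 38.6% (36.0% to 41.2%) and 41.1% (39.1% to 43.1%). Both sets thus had a dip over the start and a peak after it. The share within 100 bp was lower for members, with intervals that overlapped only between 6.92% and 7.03%. Whether these shares differ was not tested.

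**Figure D3:**
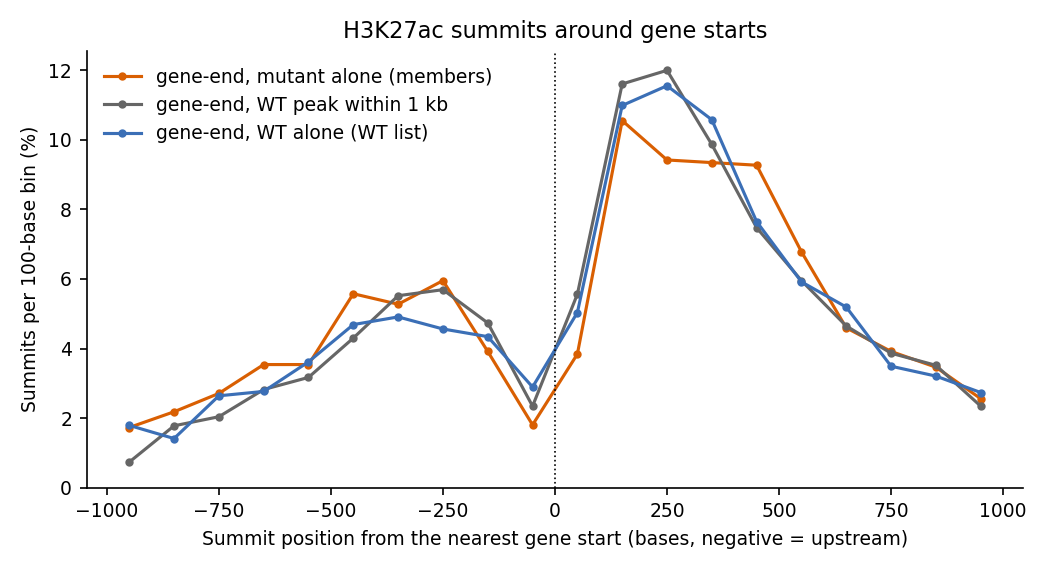
Share (%) of H3K27ac summits in each 100-base bin against the distance in bases from the nearest gene start, negative upstream, for members, shared peaks and gene-end peaks of the WT list alone. All 3 lines dip at the start and peak downstream, with medians of 196, 196 and 202 bp.

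The H3K4me3 domains under the members were of ordinary width. The 1288 mutant H3K4me3 peaks that held a member had a median width of 2.75 kb, between that of all 12412 gene-end H3K4me3 peaks (2.41 kb) and that of the 2339 holding a shared peak (2.99 kb). Of those holding a member, 16.8% (14.9% to 18.99%) also held a WT H3K27ac peak elsewhere in the domain. The bases covered by H3K4me3 within 5 kb either side were more numerous in the mutant line at 604 and in the WT line at 1023 of the 1627 members with any, so 37.1% (34.8% to 39.5%) had more in the mutant line. Among shared peaks this was 35.5% (33.8% to 37.3%), and the intervals overlapped. The median difference among sites with any, mutant minus WT, was −0.12 kb at members and −0.15 kb at shared peaks. Over all sites it was −0.01 kb (95% interval from the ranks of the sites, −0.03 to 0 kb) at members and −0.12 kb (−0.138 to −0.099 kb) at shared peaks, and these intervals did not overlap. Sites with no H3K4me3 in either line count as 0 there, and 1627 of 2022 members but 2878 of 3034 shared peaks had any.

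Only a few members had H3K4me3 in the mutant line alone. By strength they were led by the lncRNA gene Gm32406 (9 fragments, a mutant H3K4me3 peak of 1.16 kb and none in the WT line), Ogt, the O-GlcNAc transferase (9 fragments), Gm829 (13), Gm35722 (7) and Kcnc2, a voltage-gated potassium channel gene (7 fragments, H3K4me3 of 1.73 kb and none). At Ogt the difference was one of edges, since within 5 kb H3K4me3 covered 4.79 kb in the mutant and 4.82 kb in the WT line. Those with H3K4me3 in the WT line alone were led by Slc25a45, a mitochondrial carrier (15 fragments), Gm16217 (12), Gm39473 (12), Cox6a2, a muscle subunit of cytochrome c oxidase (9), and Gm30042 (11). At Gm30042 and Slc25a45 a mutant H3K4me3 peak lay 11 bp and 684 bp from the member. Within 5 kb, H3K4me3 covered 3.035 kb in the mutant and 5.085 kb in the WT line at Gm30042. At Slc25a45 it covered 3.44 kb and 4.77 kb. At Cox6a2 the WT H3K4me3 peak was 1.52 kb wide and the mutant line had none within 5 kb, although the H3K27ac peak was in the mutant list.

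H3K4me1, the mark KMT2D places, rarely lay under the members in either line. It overlapped 20 members (0.989%, 0.641% to 1.52%) in the mutant and 49 (2.42%, 1.84% to 3.19%) in the WT line, against 0.758% and 1.58% of shared peaks. Within 1 kb the member shares were 5.54% and 7.42%. The strongest members with mutant H3K4me1 were Ttc41, H3c13, Gm31936, Gm30042 and the start region of Spryd4 and Gls2. The mutant H3K4me1 list held 3649 peaks and the WT list 17373, so these shares are not on a common scale between the lines.

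WT H3K27me3 overlapped 9 members (0.445%, 0.234% to 0.844%) and 0 of the 3034 shared peaks, which allows a share of up to 0.0989%. Among the strongest were Bnc2, a zinc finger gene active in pigment and mesenchymal cells, Duoxa2, a maturation factor of dual oxidase, Adm2, a hormone of the calcitonin family, and Hdgfl3. These 4 were low peaks of 6 or 7 fragments, and each had H3K4me3 in both lines. At Bnc2 the H3K4me3 peak was 2.98 kb wide in the mutant and 1.53 kb in the WT line, while at Adm2 it was 0.979 kb and 1.36 kb. The deposited list of regions with more H3K27me3 in the mutant than in the WT library overlapped 0 of 2022 members, which allows a share of up to 0.148%, and lay at an end of 1 gene with a member (0.0602%, all genes 0.219%). That list held 1300 peaks over 0.269 Mb. It also overlapped 0 of the 3034 shared peaks and 0 of the 4587 gene-end peaks of the WT list alone.

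By gene, 1662 of 21887 protein-coding genes had a member peak at an end, which was 7.59% of all and is fixed by the rule. A further WT H3K27ac peak lay at one of the gene's ends, beyond 1 kb of the member, for 302 of them, and 1360 had none. H3K4me3 marked an end in both lines for 1495 of the 1662 genes (90.0%, 88.4% to 91.3%), against 55.0% of all protein-coding genes. It did so in the mutant line alone for 17 (1.02%, all genes 1.68%), in the WT line alone for 18 (1.08%, all genes 1.37%) and in neither for 132 (7.94%, all genes 41.9%). WT H3K27me3 lay at an end of 50 (3.01%, all genes 9.94%). WT H3K4me1 lay at an end of 130 (7.82%, all genes 4.21%) and mutant H3K4me1 at an end of 89 (5.35%, all genes 2.27%). Among the 12040 genes with H3K4me3 in both lines, 12.4% had a member peak, the background for gene lists restricted to such genes. Of 12727 lncRNA genes, 526 (4.13%) had one.

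Several members could share a gene. There were 175 protein-coding genes with more than 1 member peak, and 3 peaks was the most. Calhm2, a channel gene, had 3 peaks side by side of 15, 14 and 11 fragments, with no WT H3K27ac peak within 30.0 kb. The start region of Mcm3ap, an mRNA export factor, and Ybey, a ribonuclease of mitochondria, had peaks of 10, 6 and 7 fragments and no WT peak within 123 kb. That of Ppp1r15a, a stress-induced phosphatase subunit also called GADD34, and Plekha4 had peaks of 13, 9 and 9 fragments with a WT peak from 2.38 kb away.

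Genes of the melanocyte lineage and of other cell states were members in small numbers. In the melanocyte and pigment list 3 of 24 genes had a member peak (12.5%, 4.34% to 31.0%), and 11 of the 24 had H3K4me3 in both lines. Gpnmb, a melanosome glycoprotein, had 11 fragments and its H3K4me3 peak was 4.38 kb wide in the mutant and 1.02 kb in the WT line. Rab38, a GTPase of melanosome transport, had 6 fragments and H3K4me3 of 1.55 kb and 1.59 kb. Pmel, the melanosome fibril protein, was reached through a peak of 7 fragments near the start of its neighbour Rab5b, with H3K4me3 of 2.89 kb and 2.43 kb. So H3K4me3 width differed between the lines by over 3 kb at Gpnmb and by less than 0.5 kb at the other 2.

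In the undifferentiated, invasive or neural crest list 4 of 26 genes had a member peak. Sox9, a neural crest transcription factor, had 9 fragments inside a mutant H3K4me3 peak of 7.85 kb, and no WT H3K4me3 peak overlapped the site, although WT H3K4me3 covered 2.25 kb within 5 kb against 5.25 kb in the mutant line. Sox2 had 9 fragments and Tfap2b 10, both within wide H3K4me3 peaks of both lines (10.9 kb and 9.64 kb at Sox2, 8.86 kb and 10.1 kb at Tfap2b). At Sox2 and Tfap2b a WT H3K27ac peak lay 1.80 kb and 1.59 kb away. Cdh2, N-cadherin, had 7 fragments at a gene end with no H3K4me3 in either line.

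Of the AP-1 and immediate early list, 3 of 24 genes were members, Jun with 11 fragments and its nearest WT peak 29.6 kb away, Fosl1 with 9, and Ier5 with 7 and a WT peak 1.26 kb away. All 3 had H3K4me3 in both lines. Fibroblast markers included 2 of 12, Postn (8 fragments) and Dcn (5), the latter without H3K4me3 in either line. The endothelial, immune and keratinocyte lists had 0 of 12 each and the Hox genes 0 of 39, which for Hox allows a share of up to 7.69%. Other developmental regulators had 1 of 36, the forkhead gene Foxc2, with 9 fragments and H3K4me3 of 9.73 kb in the mutant and 8.25 kb in the WT line.

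Lists of genes used by most cells had member shares from 4.76% to 21.4%, with wide intervals. The highest was in the heat shock and unfolded protein response list, with 6 of 28 genes (21.4%, 10.2% to 39.5%). Atf6, a sensor of unfolded protein in the endoplasmic reticulum, Hspa5, its chaperone BiP, and Hsph1, a cytosolic chaperone, had 10 fragments each and Hspa8 had 9. Each of these 4 had a WT H3K27ac peak between 1.02 and 1.49 kb away, just past the limit, and 13 of the 28 genes had H3K27ac at an end in both lines. In the IGF and insulin signalling list 6 of 30 genes (interval 9.51% to 37.3%) had a member peak. Among them were Pik3ca, the catalytic subunit of PI3-kinase (8 fragments, WT peak at 1.34 kb), Rptor of the mTORC1 complex (9 fragments, WT peak at 20.9 kb), and Igfbp3, which binds IGF in the extracellular space (8 fragments, WT peak at 20.8 kb). The peak counted for Tsc2, a brake on mTORC1, lay at its shared end with Pkd1, had 8 fragments and no H3K4me3.

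The splicing list had 6 of 33 genes (18.2%), among them Hnrnpc (10 fragments), Srsf3 (9), Srsf10 (8) and Prpf8 (7). The cell cycle list had 7 of 41 (17.1%), among them Cenpa, the centromeric histone (10 fragments), E2f3 (9), E2f2 (7) and Cdkn1a, the inhibitor p21 (10). At Cdkn1a the member lay in H3K4me3 of 2.38 kb in the WT line and in none in the mutant line. The glycolysis list had 4 of 24 (16.7%), with 10 fragments at Tpi1 and at Aldoa, 9 at Gpi1 and 5 at Slc2a3, a glucose transporter. The Mediator and general transcription factor list had 5 of 32 (15.6%), with 8 fragments at Polr2b, a core subunit of RNA polymerase II, 9 at the shared start of Ak6 and Taf9, 7 at Taf2 and 10 at Gtf2a1. The members at E2f3, Srsf10, Cenpa and Gtf2a1 had a WT H3K27ac peak 1.15, 1.31, 1.31 and 1.57 kb away.

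Autophagy and lysosome genes had 4 of 28 (14.3%), Atg12 with 9 fragments and Atg16l1 with 8 among them. Replication and repair genes had 4 of 32 (12.5%), Mcm5, Mcm4 and Atm among them, with low peaks of 5 fragments each. Cholesterol genes had 3 of 24 (12.5%), Dhcr7 and Hmgcs1 with 9 fragments and Fdps with 7. Oxidative phosphorylation and TCA cycle genes had 4 of 34 (11.8%), led by Cs, citrate synthase, with 12 fragments and 9.11-fold enrichment. Chromatin remodellers had 3 of 27 (11.1%), Smarcc2, Smarcd2 and Smarca5, and the proteasome list 3 of 30, Psmd1, Psmd2 and Psmc4. The Smarcc2 peak lay near gene stops alone, nearest that of Myl6, and the Smarcd2 peak nearest the start of Tcam1. A WT H3K27ac peak lay 1.47 kb from the Smarca5 peak. The peaks counted for Prpf8, Atm and Dhcr7 also lay nearest the start of a neighbouring gene, and that for Atg12 covered an end of Ap3s1.

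Of the remaining lists, interferon and antigen presentation genes had 2 of 25, Ifit3 and H2-D1, with 7 fragments each. The mitochondrial ribosome list had 3 of 40 (7.5%), Mrps7, Mrps27 and Mrpl17, but the whole Mrpl and Mrps family, counted after values were seen, had 12 of 78 (15.4%, 9.03% to 24.99%), so its place here depends on which genes the list holds. H3K4 and H3K27 enzymes had 2 of 28. One is Kmt2d itself, counted through a peak of 12 fragments (chr15:98830919-98831113) whose nearest gene end was the start of Prkag1, 395 bp away. This peak lay within 1 kb of an end of Kmt2d and was not shown to lie at the Kmt2d start. The other was Rbbp5, a core subunit of the MLL complexes, with 10 fragments. Translation factors had 2 of 29, Eef2 and Eif2b4, and housekeeping genes 1 of 20, Sdha. The peaks counted for Eif2b4, Sdha and Mrps27 lay nearest the start of a neighbouring gene. A WT H3K27ac peak lay 1.33 kb from that counted for Eif2b4. Cytosolic ribosomal proteins had 2 of 42 (4.76%, 1.32% to 15.8%), Rps19 with 12 fragments and Rpl22 with 9, while 24 of the 42 had H3K27ac at an end in both lines. All Rpl and Rps genes together, counted after values were seen, had 6 of 76 (7.89%, 3.67% to 16.2%), near the 7.59% of all genes. Intervals of the heat shock, IGF, splicing and cell cycle lists lay above the 7.59% of all protein-coding genes, but of these 4 only IGF had an interval above 12.4% when counted among genes with H3K4me3 in both lines (27.3%, 13.2% to 48.2%). That count takes H3K4me3 at either gene end. The peaks named for Tsc2 and Igfbp3 did not themselves overlap H3K4me3 in either line. The lists were not tested, and 27 lists were looked at.

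**Figure D4:**
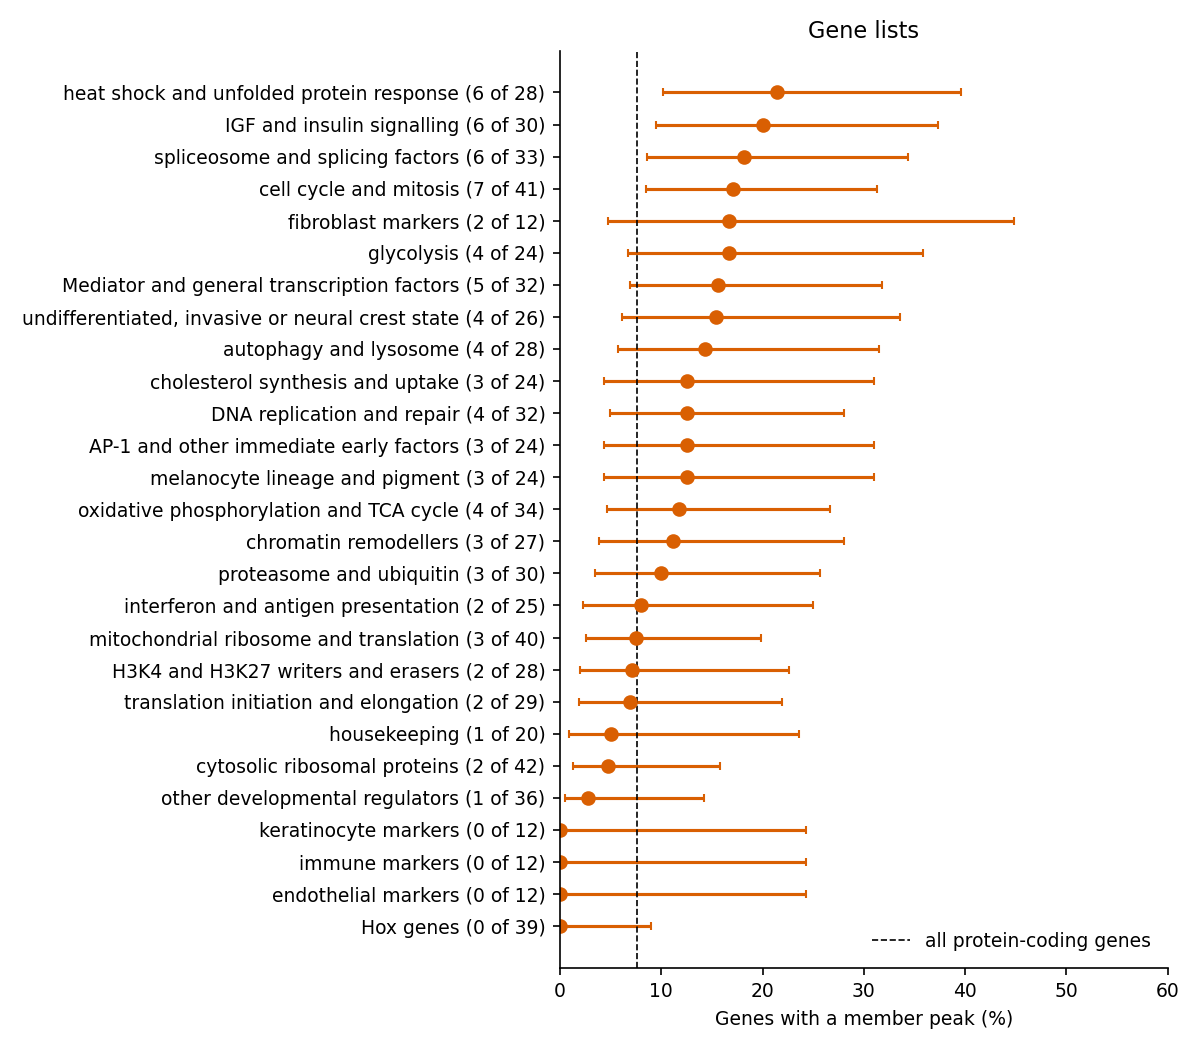
Share (%) of the genes of each of 27 lists with a member peak, with 95% Wilson intervals and the count of genes in brackets. The dashed line marks the 7.59% of all protein-coding genes, and most intervals include it.

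The members were spread unevenly over the chromosomes. Chromosome 10 had the largest share of protein-coding genes with a member, 126 of 1001 (12.6%), followed by chromosome 19 with 84 of 705 (11.9%, 9.73% to 14.5%), and X had the smallest, 35 of 966 (3.62%). From 80 Mb onward on chromosome 10 the share was 15.2% (12.3% to 18.6%), and below it 9.96% (7.64% to 12.9%), against 7.19% (6.85% to 7.56%) on all chromosomes other than 10 and 19. Genes with H3K4me3 in both lines made up 60.9%, 59.2% and 54.6% of those in these 3 stretches. Among the genes with H3K4me3 in both lines, 23.4% had a member from 80 Mb onward on chromosome 10, 16.6% on chromosome 19 and 11.9% on the others. On X, 37.5% of genes had H3K4me3 in both lines, and 9.67% of these had a member. The whole H3K27ac lists were uneven in the same way, with 1451 mutant and 1564 WT peaks on chromosome 10 and 991 and 852 on 19, against 18751 and 26415 in all, so the whole mutant list was raised there as well. Counted per mutant gene-end peak instead, members were 45.8% (40.7% to 51.1%) on chromosome 10, 43.6% on 19 and 52.1% (40.7% to 63.3%) on X, against 40.0% overall. Chromosome 14, at 48.2% (40.8% to 55.7%), stood above 10 and 19 on this measure.

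**Figure D5:**
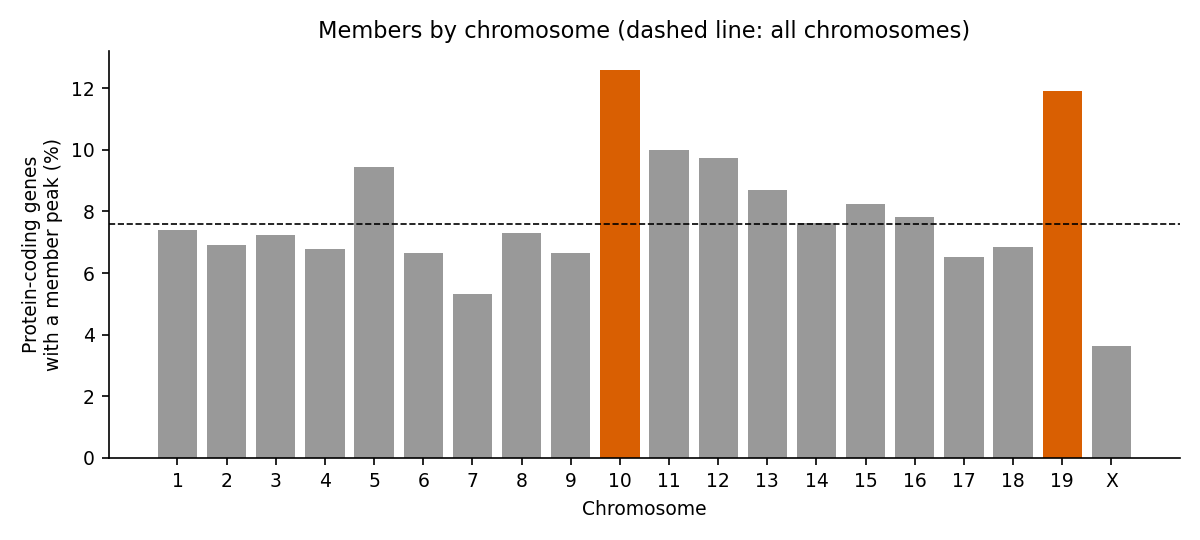
Bars give the share (%) of protein-coding genes on each chromosome with a member peak at an end, and the dashed line the 7.59% over all chromosomes. Chromosomes 10 (12.6%) and 19 (11.9%), in orange, are highest and X (3.62%) is lowest.

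The promoters of member genes had the base composition of promoters with H3K4me3. RefSeq promoters of 300 bases, from 250 before to 50 after the start, were matched for 1356 of the 1662 genes. The ratio of observed to expected CpG had a median of 0.77, and 73.9% (71.5% to 76.2%) of promoters reached 0.6, against 0.58 and 48.3% for all 17492 promoters. For promoters with H3K4me3 in both lines the values were 0.78 and 76.3% over all genes and 0.79 and 78.7% for member genes. Genes with H3K27ac at an end in both lines and no member stood somewhat higher, at 0.82 and 80.4% (78.6% to 82.1%). The 103 member genes with H3K4me3 in neither line had a median of 0.30, with 26.2% (18.7% to 35.5%) reaching 0.6, against 0.20 and 12.1% (11.3% to 12.8%) for all genes without H3K4me3. The pairs of sequences shown above follow no single composition, since Gnb2 and Farsb had H3K4me3 with few CG.

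Short motifs were searched on both strands of the same 300 bases. The GC box (GGGCGG) was in 65.2% of member promoters, 46.3% of all and 67.5% of those with H3K4me3 in both lines. The ETS motif (CCGGAAG) was in 19.2%, 11.9% and 18.5%, the NRF1 motif (GCGCATG) in 7.01%, 4.89% and 7.31%, and the YY1 motif (AAGATGG) in 8.26%, 6.37% and 7.17%. So for these 4 motifs the member promoters lay near those with H3K4me3. The CCAAT box (CCAAT) was in 41.9% (39.3% to 44.5%) of member promoters and 34.6% (32.5% to 36.7%) of promoters with H3K27ac in both lines and no member, but in 39.1% of those with H3K4me3. The AP-1 motif (TGANTCA) was in 5.53% (4.44% to 6.88%), 3.66% (2.92% to 4.58%) and 4.25%. Of all promoters, 39.0% had the CCAAT box and 7.08% (6.71% to 7.47%) the AP-1 motif. The AP-1 share of member promoters was thus below that of all promoters, with intervals that overlapped. The remaining motifs were CRE (TGACGTCA) in 3.83%, the E-box (CACGTG) in 8.41%, the M-box (CATGTG) bound by MITF in 6.78%, and the TATA box (TATAAA) in 8.04% of member promoters, against 2.34%, 7.90%, 11.5% and 13.3% of all. Of promoters with H3K4me3 in both lines they were in 3.48%, 10.4%, 7.44% and 6.67%, so the lower M-box share was near that of promoters with H3K4me3, and the E-box and the TATA box stood the other way round against these than against all. A match describes the letters and shows no binding.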

How the data were processed

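Peak lists of 8 ChIP libraries were used, 1 per line and mark, and the 4 input libraries were not analysed here. The build was mm10 and MACS2, FastQC and MultiQC were used, per the submitters' processing notes. For aligner, read filters and depth the sources used here give nothing. In the MACS2 lists deposited by the authors each peak has a fold enrichment (a ratio) over its control and −log10 p and q values, and the H3K4me3 lists carry the authors' deposited score. The H3K27ac summit was deposited by the authors as an offset in bases. By their names, both H3K27ac lists had the line's own input as control and the mutant H3K27me3 list had the WT H3K27me3 library. Peaks on the 19 autosomes, X and Y were kept.

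Gene ends came from a RefSeq table (GRCm38.p6), and strand and start from its promoter table, which held 27025 of 34614 genes. Overlap meant at least 1 bp. Summit fragments were the whole numbers that gave both the deposited fold and p to within 0.001, and the calculation was tested on simulated data. With 1 library per group there is no test, and shares have 95% Wilson intervals. A count of 0 was given a limit of 3 counts. Coordinates are 1-based.

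The members and lists were chosen with earlier results of these data known. Named were the 12 strongest members by −log10 p, the 5 strongest in each class by other marks, up to 4 members per gene list, up to 5 genes with several members, and those next to the distance limits. Some genes named by it are not reported here. Members of a list beyond these 4, the families and the H3K4me3 extremes below were chosen after their values were seen. Python 3.11.15, numpy 2.4.6, pandas 2.3.3, scipy 1.17.1 and matplotlib 3.10.9 were used.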

Additional observations from a re-analysis of the deposited data

How the results depend on the processing

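No paired analysis was possible because each line had 1 library per mark, and no replicate could be left out. Over 19 results, 57 of 108 values under other settings moved by less than their counting interval or by under 1.5 times for counts, and 51 moved by more. Counts and shares cannot change sign. The median H3K4me3 difference over all members could. It was 0 kb with a gene-end distance of 2.5 kb, a WT peak counted within 2.5 kb or a window of 2 kb, and negative under the other settings. The number of members followed the distances. It was 3074 (2504 genes) with a gene-end distance of 2.5 kb, 1324 (1107 genes) with 0.5 kb, and 3931 (3375 genes) when only a WT peak that overlapped by 1 bp counted. With at least 8 fragments, chosen after seeing the data, it was 774 (684 genes).

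Mutant and WT H3K4me3 shares were 60.3% and 61.3% at 2.5 kb, 74.7% and 75% at 0.5 kb, 79.5% and 80.4% with 1 bp for the WT peak, 73.5% and 74.0% in lists of equal length, 80.9% and 80.6% for protein-coding genes, 81.3% and 81.3% for gene starts, 74.6% and 75.7% with other marks within 1 kb, and 78.3% and 80.1% with at least 8 fragments. In the more significant 50% of each list the mutant share fell to 67.6% and the WT share rose to 73.9%. Mutant H3K4me1 was at 0.453% at 0.5 kb, 0.389% in the more significant 50% and 5.54% within 1 kb. WT H3K4me1 was at 3.61% at 2.5 kb, 1.74% at 0.5 kb, 1.49% in the more significant 50%, 1.11% for protein-coding genes, 1.63% for gene starts and 7.42% within 1 kb. WT H3K27me3 was at 0.227% at 0.5 kb, 0.229% with 1 bp for the WT peak, 0.0648% in the more significant 50%, 1.38% within 1 kb and 0% with at least 8 fragments. The median difference in H3K4me3 over all members, mutant minus WT, was −0.01 kb, and −0.064 kb with 1 bp for the WT peak, −0.051 kb for protein-coding genes, −0.053 kb for gene starts, −0.0485 kb in a window of 10 kb and −0.0765 kb with at least 8 fragments. In the 250 bases before the start alone, motif shares were 6.93% for the E-box, 39.2% for the CCAAT box, 59.7% for the GC box, 15.6% for ETS, 5.09% for NRF1 and 4.65% for YY1.

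The cause of these moves was not tested. Peaks of 4 to 24 fragments and an unknown depth limit what absence from a list shows.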

Other observations

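Replication-dependent histone genes, which are clustered and transcribed in S phase, held many members. A member peak lay at 21 of 63 (33.3%, 22.9% to 45.6%), against 7.59% of all protein-coding genes. The family was chosen after its values were seen, and neighbouring histone genes share peaks, so the genes are not separate observations. Of the cluster on chromosome 13, 18 of 53 genes had one, and of that on chromosome 3, 3 of 10. The 19 peaks had 6 to 17 fragments with a median of 8, and 12 lay in H3K4me3 of both lines. Of the 63 genes, 7 had H3K27ac at an end in both lines, which can include genes with a member, and 11 in the WT line alone. Near-identical copies make the placing of reads between these genes uncertain.

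Of other families chosen in the same way, mitochondrial ribosomal protein genes had 12 of 78 (15.4%, 9.03% to 24.99%), Zfp zinc finger genes 35 of 397 (8.82%) and Slc transporter genes 28 of 375 (7.47%). Olfactory receptor genes had 0 of 1110, which allows a share of up to 0.270%, and vomeronasal receptor genes 0 of 355, up to 0.845%. These receptor families had H3K4me3 in neither line at 1107 of 1110 and 352 of 355 genes.

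The members with the largest differences in H3K4me3 within 5 kb were also chosen after their values were seen. Syt4, a synaptotagmin of secretory vesicles, had 5.24 kb in the mutant and 0 kb in the WT line. Isl1, a LIM homeobox factor of motor neurons, had 5.15 kb and 1.32 kb, with WT H3K27me3 of 0.639 kb over the member. Rasgrf1, a RAS exchange factor, had 4.62 kb and 2.05 kb. Mab21l1, a gene of eye development, had 7.34 kb and 4.53 kb. On the WT side were Pla2g4a, a cytosolic phospholipase A2, with 2.42 kb in the mutant and 5.78 kb in the WT line, Got1, an aspartate aminotransferase, with 2.72 kb and 5.52 kb, and Cdkn1a with 2.31 kb and 4.98 kb. All of these had their H3K27ac peak in the mutant list, with 7 to 10 fragments.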
